A study of Mus musculus with 4 samples.

Results

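The baseline difference between the substantia nigra (SN) and the ventral tegmental area (VTA) was described in 5 control mice of a spatial transcriptomics series of 8 mice on 4 arrays, 2 of them with midbrain sections. From the 23 columns of the deposited midbrain tables, the 10 columns that hold the SN or the VTA of a control mouse were taken, 5 columns for each region, and the regions of a mouse were paired. The control mice were 3 GqVeh mice (802, 784 and 785), injected in the midbrain with a Cre-dependent AAV for hM3Dq-mCherry and given 2% sucrose water, and 2 CNO alone mice (C2W2 and C1W7), which had no virus and drank clozapine-N-oxide (CNO, 300 mg/L) with 2% sucrose. All were males of 3 to 4 months, homozygous for Cre at the dopamine transporter gene Slc6a3 (genotype DAT (iCre/iCre)), singly housed with a running wheel and treated for 1 week. All carried Cre at both copies of Slc6a3, and none was free of both virus and CNO. The other 3 mice (GqCNO) had the virus and CNO together, and their values are given only beside the control values.

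The SN and the VTA hold most of the dopamine (DA) neurons of the midbrain. DA neurons of the SN project mainly to the dorsal striatum and are those lost first in Parkinson's disease, while VTA neurons project to the ventral striatum and cortex and are less vulnerable. DA neurons make dopamine from tyrosine through tyrosine hydroxylase (Th), load it into vesicles with the transporter Slc18a2 and take it back up with the dopamine transporter Slc6a3. Within this shared program, ventral SN neurons are known for the aldehyde dehydrogenase Aldh1a1, and many VTA neurons for the calcium buffer calbindin (Calb1) and neuropeptides such as cholecystokinin (Cck).

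Each value was an average over capture discs (55 µm barcoded spots) that the authors assigned to a region of a mouse, and a disc holds several cells, so a column mixes DA neurons with their neighbours. In such averages, fewer cells of a type and less RNA per cell cannot be told apart. Discs had been chosen for a whole TH-positive soma and for expression of at least 2 of Th, Slc6a3 and Slc18a2, and discs high in the glial genes Gfap, Aldh1l1, Aif1 or P2ry12 had been left out, so the levels of these genes are partly set by the choice of discs. The SN columns rested on 3 to 7 discs and 11644 to 71906 UMIs (unique RNA molecules), and the VTA columns on 2 to 49 discs and 25808 to 350222 UMIs. Levels are given as UMIs per 10000 of a column, and differences as log2(SN + 0.5) minus log2(VTA + 0.5) within a mouse, which understates the change of low genes. The SN column of mouse 784 stood apart, with 11644 UMIs over 5 labelled discs (2329 UMIs per disc, against 9497 to 12614 in the other SN columns), and a count of 0 in it allowed a level of up to 2.58 per 10000. The VTA column of mouse 785 rested on 2 discs and 25808 UMIs. In the following, values in 5 mice are always in the order 802, 784, 785, C2W2, C1W7.

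Th, Slc6a3, Slc18a2 and Ddc, which make, store and take up dopamine, had overlapping levels in the SN and the VTA. Th was measured at 26, 16.3, 17.5, 26.7 and 21.7 per 10000 in the SN of the 5 mice, against 19.2, 20.5, 26.7, 26 and 28.1 in their VTA. The SN value was the higher one in 2 mice and the lower one in 3. The mean difference was -0.16 ± 0.29 (log2, SE). Each SE of a difference is that of limma, moderated toward a trend over all genes. A two-sided exact sign-flip permutation test over 5 mice gave p = 0.5, and its smallest possible p is 0.0625. Slc6a3 was 6.05, 1.72, 5.26, 6.08 and 7.23 in the SN, against 4.57, 3.43, 4.65, 4.05 and 5.51 in the VTA. Its level was higher in the SN of 4 mice and lower in that of mouse 784 (mean difference 0.12 ± 0.29; exact p = 0.625). Slc18a2 averaged 8.29 ± 2.55 in the SN and 8.93 ± 1.79 in the VTA (SD, n = 5 each). Ddc, the enzyme that forms dopamine from L-DOPA and was named after its values were seen, averaged 13.1 ± 5.05 in the SN and 12.9 ± 2.31 in the VTA. All 4 of these genes were near 0 in the columns labelled TH of the same sections, where the thalamic genes Tcf7l2 (mean 10.4) and Rora (7.82) were high and which are called thalamus here. Th averaged 0.0988 and Slc6a3 0.0342 per 10000 there. Since discs of the SN and VTA were chosen for these genes, this contrast with the thalamus was set by the choice. Of the 14 genes listed for dopamine synthesis, storage and uptake, all were tested, 4 had a mean difference above 0 and 10 below 0, and the median was -0.11, against -0.06 over all tested genes. The member with the smallest p was Gch1, the first enzyme of the synthesis of tetrahydrobiopterin, the cofactor of TH. Gch1 was 1.21, 0, 1.05, 1.06 and 0.556 in the SN, against 1.41, 1.37, 1.55, 1.54 and 1.34 in the VTA. Its levels did not overlap between the regions, as for 0.68% of all tested genes in this direction, and its difference was -0.73 ± 0.33 (limma, unadjusted p = 0.0287, adjusted p = 0.928), though the SN of 784 was at 0, and without that mouse the difference was -0.44.

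**Figure D1:**
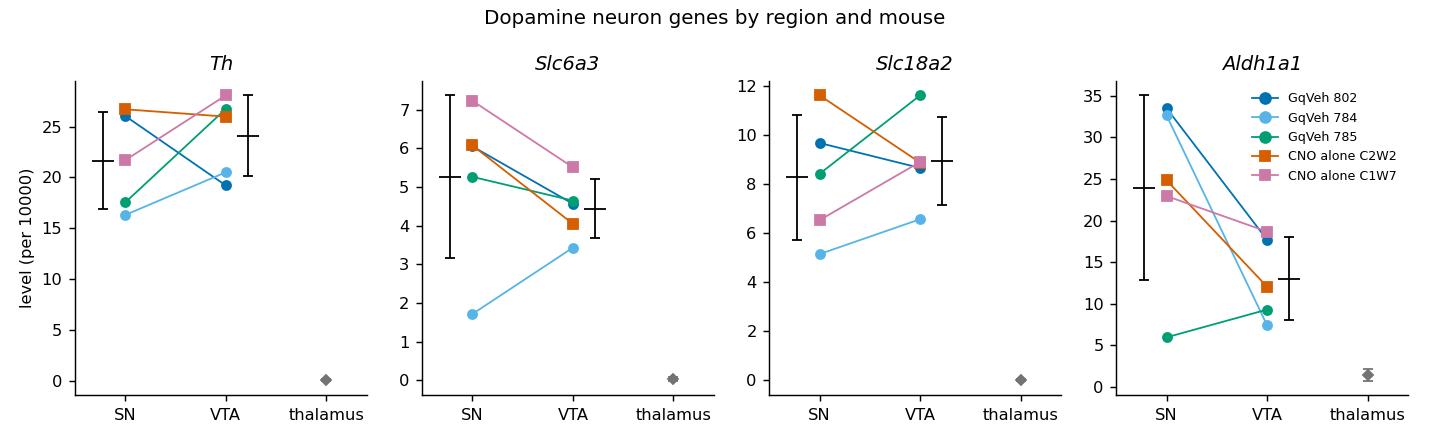
Level (UMIs per 10000) of the DA neuron genes Th, Slc6a3, Slc18a2 and Aldh1a1 in the SN and VTA of 5 control mice (lines join the regions of a mouse, circles GqVeh, squares CNO alone, black bars the mean and SD over 5 mice) and in the thalamus (grey diamond, mean and SD over 5 mice). Th, Slc6a3 and Slc18a2 overlapped between regions, and Aldh1a1 was higher in the SN of 4 mice.

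Across 6180 genes with a mean of at least 0.25 per 10000, no gene passed an adjusted p of 0.05 in limma (0% called, smallest adjusted p 0.928). At an unadjusted p under 0.05, 65 genes were higher and 193 lower in the SN (4.17% of the genes tested). Of these, 27 were higher in the SN of 5 of 5 mice (0.437%) and 101 lower in 5 of 5 (1.63%), together 2.07%, and with TMM scaling these counts became 12 and 158. Whatever the p, 1.86% of genes were above and 4.58% below the VTA in 5 of 5 mice. With no difference at all, a share of 0.05 of genes would be expected at this unadjusted p. Random signs would put a share of 0.0625 on the same side in 5 of 5 mice. The totals over both directions were near these shares, so being counted does not by itself mark a regional gene. The 5 SN levels lay wholly above the 5 VTA levels for 20 genes (0.324%) and wholly below them for 42 (0.68%). The median difference over all tested genes was -0.06, and TMM scaling or an added constant of 0.1 moved it to -0.17, so small differences are read relative to this median. To be counted, the 101 genes had to be lower in the SN of 784 too, and the 27 higher in that of 785. Zeros in the shallow columns of these mice therefore follow in part from the choice of genes. Their shares cannot show an effect of depth. Among the 101, 87 (86.1%) were at 0 in the SN of 784, against 2582 (41.8%) of all tested genes, and 49 kept an unadjusted p under 0.05 without that mouse. Among the 27 higher genes, 17 were at 0 in the 2-disc VTA of 785, against 1181 of all 6180 tested genes, and 15 kept an unadjusted p under 0.05 without that mouse. The part of depth in these counts was not tested. A count model on the recovered UMIs (edgeR, mouse as a block) called 4 genes at an adjusted p under 0.05 (0.0647% of those tested), of which Calb1, Cck and Tac1 were lower and Aldh1a7 higher in the SN, each with an adjusted p of 0.0077. At an unadjusted p under 0.05 it had 53 genes higher and 154 lower (3.35%). DESeq2 on the same counts called 0 genes (smallest adjusted p 0.23). The difference between regions was also compared between the control groups (GqVeh minus CNO alone), and limma called 0 of 6180 genes there, with 207 at an unadjusted p under 0.05.

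**Figure D2:**
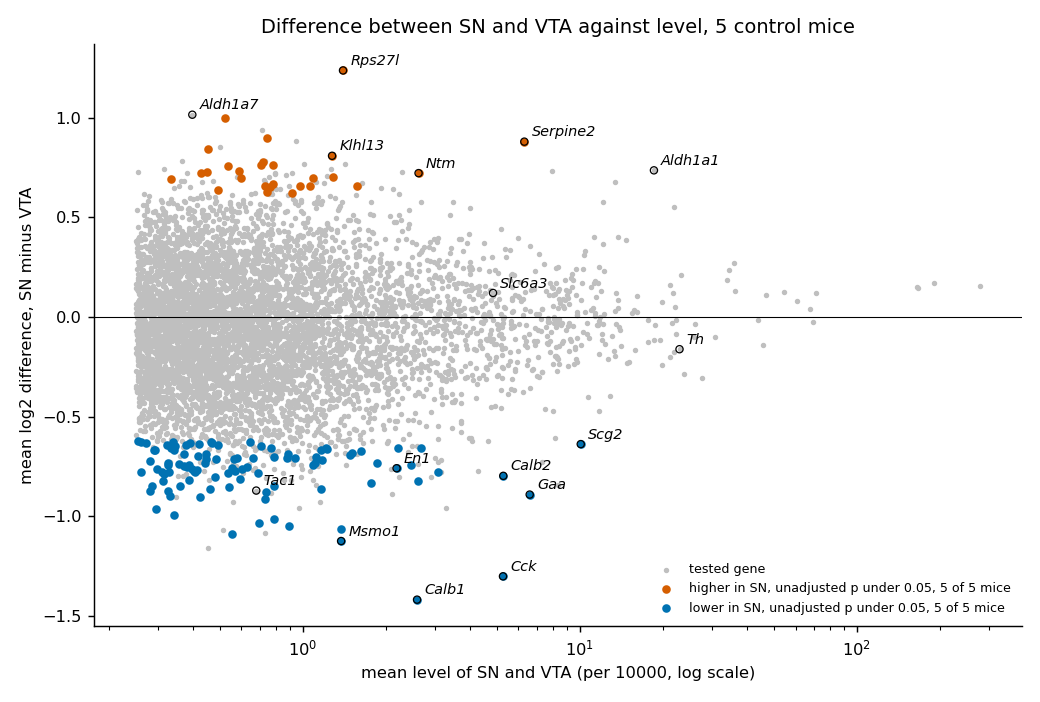
Mean log2 difference (SN minus VTA, 5 control mice) of the 6180 tested genes against their mean level over both regions (UMIs per 10000, log scale). Coloured points are the 27 genes higher (orange) and 101 lower (blue) in the SN with an unadjusted p under 0.05 and the same sign in 5 of 5 mice; Calb1 and Cck lie lowest at levels above 1 per 10000, and Rps27l lies highest.

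Calb1 and Cck had the lowest p of all tested genes in limma, and both were lower in the SN in the count test. Calb1, which encodes the calcium buffer calbindin, lies on chromosome 4 (15881264 to 15906709, GRCm38.p6). It was measured at 1.21, 0.859, 0.526, 1.32 and 2.09 per 10000 in the SN of the 5 mice, against 2.69, 4.95, 2.71, 4.63 and 4.83 in their VTA. Every SN level was below every VTA level. The mean was 1.2 ± 0.585 in the SN and 3.96 ± 1.16 in the VTA (SD, n = 5 each), or 30 UMIs of 227937 against 435 of 956728. The difference was -1.42 ± 0.37 (log2, SE; limma, unadjusted p = 0.000305, adjusted p = 0.928; edgeR, log2 -1.65, adjusted p = 0.0077). It was -1.20 on average in the mice of one midbrain array (802 and C2W2) and -1.56 in those of the other, -1.52 in GqVeh mice and -1.27 in CNO alone mice. Without C2W2 or C1W7 the edgeR call was lost (adjusted p = 0.261 and 0.194). Calb1 was also high in the thalamus, at 3.42 ± 1.03 (SD, n = 5).

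Cck encodes the neuropeptide cholecystokinin and lies on chromosome 9 (121489824 to 121495694). It was 2.02, 0.859, 4.91, 4.76 and 2.5 in the SN, against 3.63, 7.02, 8.52, 8.65 and 9.88 in the VTA. The SN was the lower region in each mouse, although levels of different mice overlapped. The mean was 3.01 ± 1.77 in the SN and 7.54 ± 2.41 in the VTA, with a difference of -1.30 ± 0.37 (limma, unadjusted p = 0.000808; edgeR, log2 -1.34, adjusted p = 0.0077). The edgeR adjusted p was 0.0935 without 802, 0.261 without C2W2 and 0.999 without C1W7, so the call was lost without any of these 3. In the thalamus Cck averaged 7.93, close to its VTA level. Calb2, which encodes the related calcium-binding protein calretinin, was 3.63, 2.58, 1.4, 6.08 and 6.26 in the SN, against 5.04, 6.62, 6.97, 7.96 and 6.34 in the VTA. It was lower in the SN of all 5 mice (mean difference -0.80 ± 0.33, unadjusted p = 0.0199), with the narrowest gap in C1W7 and the widest in 785.

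**Figure D3:**
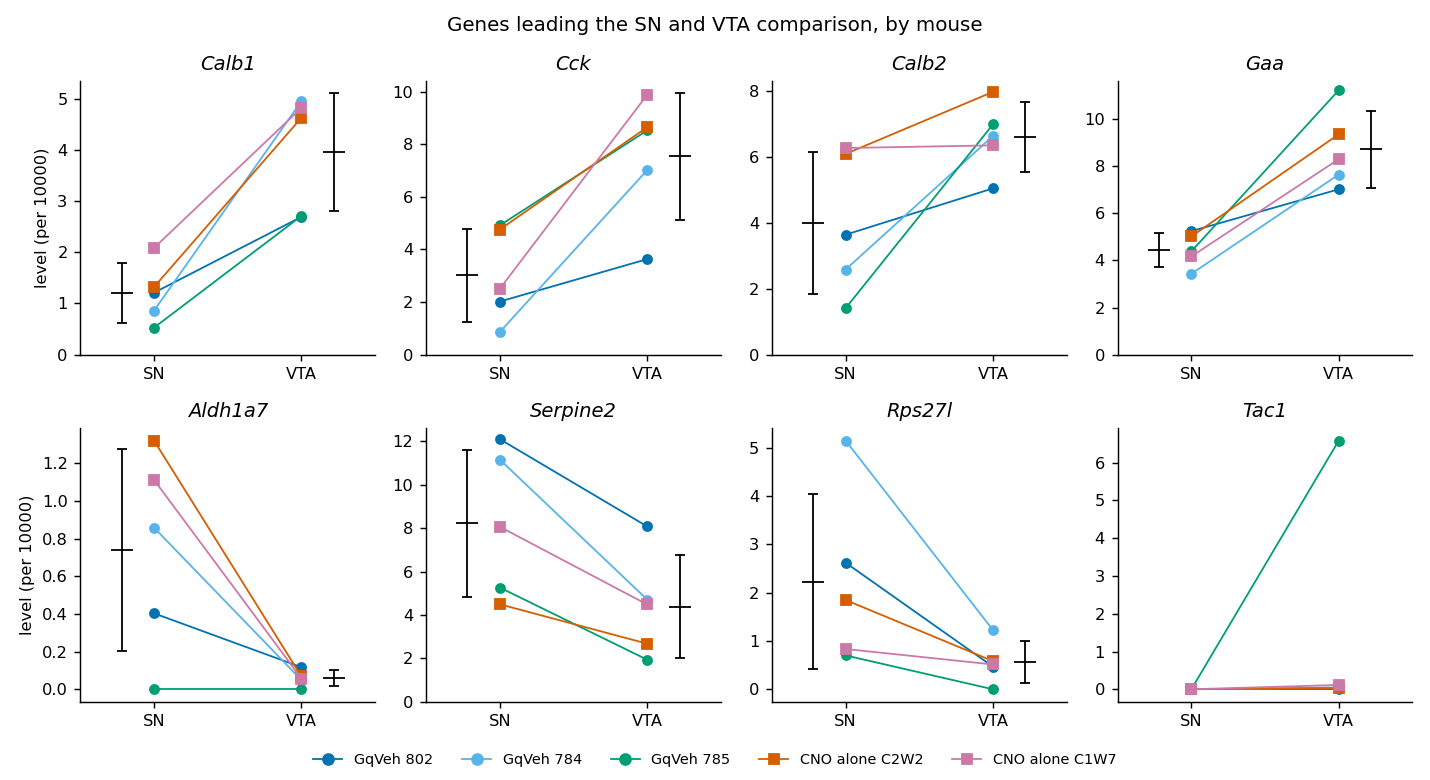
Level (UMIs per 10000) in the SN and VTA of each control mouse for 8 genes named in the text, not picked by rank. Lines join the regions of a mouse, with circles for GqVeh and squares for CNO alone. Black bars are the mean and SD over 5 mice, not drawn for Tac1. Calb1 and Gaa did not overlap between regions, and the Tac1 signal came mostly from the VTA of mouse 785.

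Tac1, the precursor of substance P, was at 0 in all 5 SN columns (0 of 227937 UMIs) and had 23 UMIs in the VTA. The VTA levels were 0, 0.0491, 6.59, 0.0343 and 0.114, so most of the signal lay in the 2 discs of mouse 785. A count of 0 over all SN columns allows a level of up to 0.13 per 10000, above the VTA levels of the other 4 mice, so no fold is given. Without 785 the edgeR adjusted p was 0.997.

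Of 17 genes listed for their known association with VTA DA neurons, 10 passed the filter on low values. Their median difference was -0.71, against -0.06 over all tested genes, with 9 below 0 and 1 (Lix1) above 0. Of the 10, 5 were lower in the SN at an unadjusted p under 0.05, a direction that 3.12% of all tested genes took, and the same genes were known to lead the comparison when the list was drawn up. Along with Calb1, Calb2 and Cck these were Lpl and Adcyap1. Lpl, lipoprotein lipase, was 0.404, 0, 0, 0 and 0 in the SN, against 0.234, 0.687, 0.775, 1.54 and 0.885 in the VTA. Adcyap1, which encodes the neuropeptide PACAP, was 0.807, 0, 0, 0 and 0 in the SN, against 0.117, 0.589, 1.16, 1.54 and 0.942 in the VTA. Both genes were at 0 in the SN of 4 mice and above 0 in 802, the mouse in which the SN level exceeded that of the VTA. With all 5 mice, edgeR called neither (adjusted p = 0.113 for Lpl and 0.418 for Adcyap1). Only without 802, the mouse that went the other way, did edgeR call both (adjusted p = 0.00748 for Lpl and 0.00658 for Adcyap1). This fit was added after the data were seen. Slc17a6, the vesicular glutamate transporter VGLUT2 that marks glutamate co-release in VTA neurons, was 0.807, 0, 0.526, 0.264 and 0 in the SN, against 0.586, 0.687, 1.55, 0.48 and 0.343 in the VTA (difference -0.62 ± 0.32, unadjusted p = 0.0557). Grp, gastrin-releasing peptide, was higher in the SN of 802 and 784 and lower in that of the other 3 mice (mean difference -0.42). The summed level of the 17 genes was 12.7, 9.45, 10.4, 16.9 and 12.4 per 10000 in the SN, against 14.3, 24.3, 24.8, 31.4 and 29.4 in the VTA. The sum was lower in the SN of every mouse. In 802, however, the median difference of the list was 0.28, and 6 of the 10 tested members (Slc17a6, Grp, Adcyap1, Lpl, Tacr3 and Lix1) were higher in the SN, against medians of -1.17 to -0.85 in the other 4 mice. The members below the filter were sparse. Vip had 0 UMIs in the SN and 33 in the VTA, Neurod6 0 and 19, Nts 0 and 6 and Fst 0 and 4. Otx2, a homeobox factor of the ventral VTA, had 3 and 22, Nxph4 3 and 7 and Crym 2 and 5. The totals were 227937 UMIs in the SN and 956728 in the VTA. Mean levels of Otx2 (0.265 against 0.184) and Crym (0.0932 against 0.0338) were higher in the SN, and those of the other members below the filter were lower. These counts, too, were too low to compare.

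On the side of the SN, Aldh1a1 and its neighbour Aldh1a7 had higher mean levels, and Aldh1a7 passed the count test. Aldh1a1, which oxidises retinal and the aldehyde formed from dopamine, was 33.5, 32.6, 5.97, 24.8 and 22.9 per 10000 in the SN, against 17.7, 7.41, 9.3, 12 and 18.7 in the VTA. The SN level exceeded the VTA level in 4 mice and lay below it in 785, the mouse with 2 VTA discs. The mean was 24 ± 11.1 in the SN and 13 ± 5 in the VTA (SD, n = 5 each), a difference of 0.74 ± 0.34 (exact sign-flip permutation test, two-sided, p = 0.1875; limma, unadjusted p = 0.0344, adjusted p = 0.928). Without 784, in which the gap was widest, the difference was 0.40. Aldh1a7, named after its values were seen, is a paralog whose reads can be hard to separate from those of Aldh1a1. It was 0.404, 0.859, 0, 1.32 and 1.11 in the SN, against 0.117, 0.0491, 0, 0.0686 and 0.0571 in the VTA. It was higher in the SN of 4 mice and at 0 in both regions of 785, with 16 UMIs in the SN and 6 in the VTA. Its difference was 1.01 ± 0.37 (limma, unadjusted p = 0.00754; edgeR, log2 3.58, adjusted p = 0.0077), and the edgeR call was lost without C2W2 (adjusted p = 0.542) or C1W7 (0.999). Aldh1a7 was at 0 in the thalamus of all 5 mice, while Aldh1a1 averaged 1.44 there.

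Both genes lie on chromosome 19 in opposite orientation, 49.5 kb apart. Their promoter windows (RefSeq, GRCm38.p6, 250 bases before to 50 after the start) are shown because they share sequence, with the longest run of identical bases, 65 bases long, in capitals. Of the 2 windows listed for Aldh1a1, the one more alike to that of Aldh1a7 is shown. It spans chr19:20601718-20602017 on the + strand, and that of Aldh1a7 spans chr19:20727507-20727806 on the - strand.
Aldh1a1: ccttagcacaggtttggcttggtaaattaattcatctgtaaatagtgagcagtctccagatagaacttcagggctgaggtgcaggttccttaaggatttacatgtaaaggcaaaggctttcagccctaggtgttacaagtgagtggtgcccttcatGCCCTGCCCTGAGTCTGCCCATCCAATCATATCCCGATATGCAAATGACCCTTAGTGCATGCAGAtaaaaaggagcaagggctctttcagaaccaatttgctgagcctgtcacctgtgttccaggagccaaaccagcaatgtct
Aldh1a7: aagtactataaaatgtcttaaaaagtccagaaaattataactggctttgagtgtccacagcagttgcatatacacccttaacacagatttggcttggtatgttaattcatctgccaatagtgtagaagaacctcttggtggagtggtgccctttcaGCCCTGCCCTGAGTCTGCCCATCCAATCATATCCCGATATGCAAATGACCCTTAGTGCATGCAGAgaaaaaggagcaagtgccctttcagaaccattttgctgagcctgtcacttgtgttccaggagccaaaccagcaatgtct
Compared base by base from their starts without gaps, 142 of the last 150 bases (94.7%) were identical, against 35 of the first 150 (23.3%). Some stretches of the first 150 bases match at shifted positions, which such a comparison does not count. This is a description of the sequence, and nothing on the control of either gene was tested.

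Of 18 genes listed for their known association with SN DA neurons, 10 passed the filter on low values, and 7 of them had a mean difference above 0 (median 0.15). At an unadjusted p under 0.05, Aldh1a1 and Lmo3 were higher in the SN, a direction that 1.05% of all tested genes took, and none was lower. Lmo3, a LIM-domain transcriptional regulator, was 1.21, 3.44, 0, 1.06 and 1.53 in the SN, against 1.05, 0.245, 0, 0.309 and 0.571 in the VTA. Its difference was 0.88 ± 0.36 (unadjusted p = 0.0161), and it rested partly on 784, without which it was 0.50. Ndnf, a secreted neurotrophic factor, was 0.605, 0, 1.05, 1.32 and 1.25 in the SN, against 0.82, 0.392, 0.387, 0.24 and 0.4 in the VTA. Ndnf was higher in the SN of 785, C2W2 and C1W7 and lower in that of 802 and 784. The summed level of the 18 genes was 48.8, 42.1, 19.3, 40.7 and 39.2 in the SN, against 30.2, 15.9, 17.4, 21.9 and 30.1 in the VTA. The sum was higher in the SN of 5 of 5 mice. Aldh1a1 was the main part of the SN sum except in 785, where it was 5.97 of 19.3 and lower than in the VTA. Of the 8 members below the filter, Anxa1 had 9 UMIs in the SN and 16 in the VTA, Igf1 8 and 9, Sox6, a transcription factor of SN neurons, 3 and 9, and Kcnj6, the GIRK2 potassium channel, 3 and 0. Agtr1a, Atp2a3, Vcan and Vav3 had at most 4 UMIs in either region. The totals were 227937 UMIs in the SN and 956728 in the VTA. Mean levels in the SN and VTA were 0.376 and 0.123 for Anxa1, 0.31 and 0.0619 for Igf1 and 0.108 and 0.0737 for Sox6. They were 0.134 and 0 for Kcnj6, 0.138 and 0.0447 for Vav3 and 0.0351 and 0.0281 for Vcan. Agtr1a was lower in the SN (0 against 0.0206), and Atp2a3 was at 0 in either region. These counts were too low to compare.

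**Figure D4:**
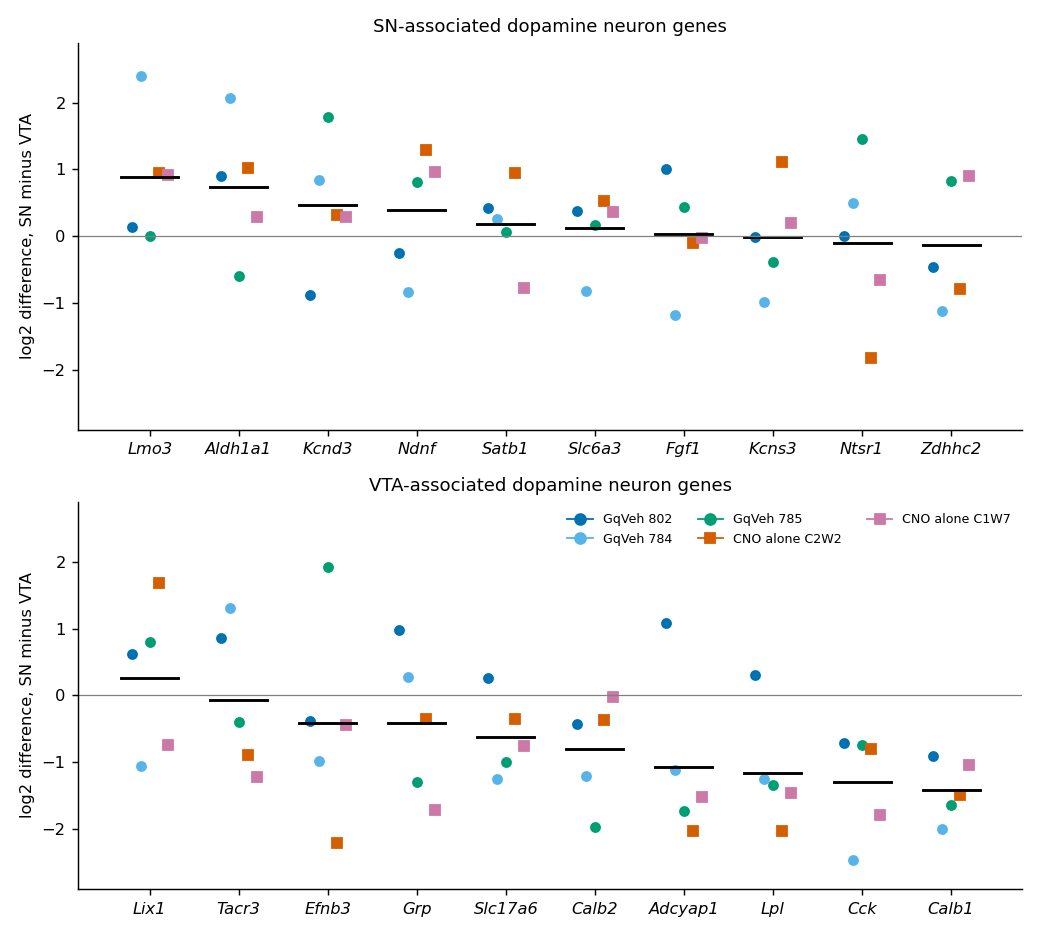
Log2 difference (SN minus VTA) in each control mouse for the tested genes of the SN-associated (top) and VTA-associated (bottom) lists, ordered by the mean of 5 mice (black line; circles GqVeh, squares CNO alone). All 5 points of Calb1, Cck and Calb2 lie below 0, and mouse 802 lies above 0 for Adcyap1 and Lpl.

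Other leading genes lower in the SN included a lysosomal enzyme, a homeobox factor and genes of sterol synthesis, and none of them passed an adjusted p in limma. Gaa, the lysosomal acid alpha-glucosidase, was 5.25, 3.44, 4.39, 5.02 and 4.17 in the SN, against 7.03, 7.65, 11.2, 9.37 and 8.31 in the VTA. The groups did not overlap, and the difference was -0.89 ± 0.33 (unadjusted p = 0.00866) and -0.85 without 784. En1, a homeobox factor that midbrain DA neurons need to survive, was 2.02, 0.859, 0.877, 2.38 and 1.53 in the SN, against 2.34, 2.5, 2.71, 3.88 and 2.68 in the VTA. It was lower in the SN of all 5 mice (difference -0.76 ± 0.32, unadjusted p = 0.0215) and was at 0 in the thalamus of all 5. Ache, acetylcholinesterase, was 1.41, 0.859, 2.46, 1.85 and 2.23 in the SN, against 3.51, 2.94, 2.71, 3.29 and 3.34 in the VTA. Its groups did not overlap and its difference was -0.74 ± 0.32 (unadjusted p = 0.0242). Msmo1, a methylsterol oxidase of cholesterol synthesis, was 1.21, 0, 0.526, 1.06 and 0.695 in the SN, against 1.41, 1.28, 3.87, 1.58 and 2.11 in the VTA, with a difference of -1.12 ± 0.36 (unadjusted p = 0.00258). Fdft1, squalene synthase of the same pathway, had a difference of -0.84 ± 0.34 (unadjusted p = 0.0171). Both were at 0 in the SN of 784, and without that mouse their differences were -0.95 and -0.45. Slc25a12, the mitochondrial aspartate-glutamate carrier, differed by -1.07 ± 0.35 (unadjusted p = 0.00385), and -0.77 without 784. Alcam, a cell adhesion molecule of the immunoglobulin family, was 0.404, 0.859, 0.526, 0.264 and 0 in the SN, against 0.82, 0.883, 2.32, 1.72 and 1.08 in the VTA. It was lower in the SN of each mouse (difference -1.05 ± 0.35, unadjusted p = 0.00383), hardly so in 784. Alcam was not called by edgeR with all 5 mice, and was called only without 784 (adjusted p = 0.0374). The other genes among the 12 named as lower, Nap1l4, Arf3 and Bex1, differed by -0.86, -0.83 and -0.78, and each was lower in the SN of 5 of 5 mice. Nap1l4 and Arf3 were at 0 in the SN of 784, and without that mouse they differed by -0.56 and -0.40.

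Of the genes with an unadjusted p under 0.05 and the same sign in 5 of 5 mice, 8 of the higher and 26 of the lower ones had a mean of at least 1 per 10000. Serpine2, a secreted inhibitor of serine proteases, was 12.1, 11.2, 5.26, 4.49 and 8.07 in the SN, against 8.08, 4.71, 1.94, 2.68 and 4.48 in the VTA. It was higher in the SN of each mouse, by 0.88 ± 0.34 on average (unadjusted p = 0.012, adjusted p = 0.928), although levels of different mice overlapped. Rps27l, a ribosomal protein S27-like gene whose reads may be shared with its paralog Rps27, was 2.62, 5.15, 0.702, 1.85 and 0.834 in the SN, against 0.468, 1.23, 0, 0.583 and 0.514 in the VTA. The difference was 1.24 ± 0.40 (unadjusted p = 0.00295), the highest of all tested genes, and 1.12 without 784. Klhl13, a substrate adaptor of a cullin ubiquitin ligase, was 1.41, 0.859, 1.4, 3.17 and 2.09 in the SN, against 1.05, 0.589, 0.387, 0.72 and 1.06 in the VTA (difference 0.81 ± 0.33, unadjusted p = 0.0186). It was higher in the SN of all 5 mice. Ntm, the adhesion molecule neurotrimin, differed by 0.72 ± 0.33 (unadjusted p = 0.0311), and 784 had the widest gap. Dgcr6, Ube2j1, Npepps and Nat14 completed the set, with differences of 0.70, 0.70, 0.66 and 0.65, each above 0 in 5 of 5 mice. Without 784, Ube2j1 differed by 0.41 and Nat14 by 0.41. Gad1, the GABA-synthesising enzyme, was 2.02, 0.859, 1.23, 2.11 and 2.92 in the SN, against 2.23, 0.54, 0, 1.27 and 0.971 in the VTA. It was higher in the SN of all mice but 802 (difference 0.77 ± 0.33, unadjusted p = 0.0252), while Gad2, which makes the same transmitter, differed by -0.12.

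Of 13 transcription factors of DA neurons, 7 were tested and only En1 passed the unadjusted threshold (median -0.15). Pitx3, which DA neurons of the SN need, differed by 0.31 ± 0.29, and Foxa2, a forkhead factor of the ventral midbrain, by -0.62 ± 0.32. Below the filter, Lmx1a and Lmx1b, which specify DA neurons, had 2 and 4 UMIs in the SN and 15 and 17 in the VTA. Bcl11a had 0 in the SN and 22 in the VTA. All genes together had 227937 UMIs in the SN and 956728 in the VTA. Mean levels in the SN and VTA were 0.0807 and 0.185 for Lmx1a, 0.156 and 0.13 for Lmx1b and 0 and 0.154 for Bcl11a. Such counts were too low to compare. Of 37 axon guidance and adhesion genes, 22 were tested, with 11 differences on either side of 0 and a median of -0.03. At the unadjusted threshold, which 1.05% of all tested genes passed upward and 3.12% downward, Ntm and Tenm2, a teneurin of synaptic adhesion (0.62 ± 0.31), were higher, and Alcam and Lsamp, a further IgLON protein (-0.77 ± 0.34, and -0.30 without 784), were lower in the SN. The cytoskeletal list had a median of -0.14 over 23 tested genes, and its members past the unadjusted threshold were the neurofilament subunits Nefm (-0.93 ± 0.36) and Ina (-0.65 ± 0.31), both lower in the SN.

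By function, the neuropeptide and calcium-binding lists had summed levels that were lower in the SN of 5 of 5 mice, and the nuclear respiratory chain and synaptic vesicle lists had medians near that of all genes. Of 29 neuropeptides, granins and processing enzymes listed, 18 were tested, 15 differences were below 0 and the median was -0.38. At an unadjusted p under 0.05, 5 of the 18 were lower and 0 higher, beside 3.12% and 1.05% of all tested genes. The 5 were Cck, Adcyap1, Tac1, Resp18 and Scg2. Cck and Adcyap1 were already counted in the VTA-associated list. Tac1 rested mostly on the VTA of mouse 785 (6.59 per 10000, against 0 to 0.114 in the other VTA columns). Scg2, secretogranin II of dense-core vesicles, named after its values were seen, was 10.7, 3.44, 6.67, 10.8 and 8.76 in the SN, against 12.1, 10.3, 13.6, 13.6 and 10.8 in the VTA, and lower in the SN of 5 of 5 mice (difference -0.64 ± 0.32, unadjusted p = 0.0485). Resp18, another protein of secretory granules, averaged 5.84 ± 1.96 in the SN and 10.8 ± 3.21 in the VTA. Only in 802 was the SN level the higher one, and the difference was -0.84 ± 0.33 (limma, unadjusted p = 0.0144). The summed level of the list was 66.99 to 88.03 per 10000 in the SN and 93.1 to 109.3 in the VTA. These ranges did not overlap. Of 19 calcium-binding proteins, 17 were tested, 4 were lower at an unadjusted p under 0.05 (Calb1, Calb2, Hpca and Ncs1) and the median was -0.17. Calb1 and Calb2 were likewise already counted in the VTA-associated list. Hpca and Ncs1, both neuronal calcium sensors, differed by -0.82 and -0.65. Both were at 0 in the SN of 784, and without it they differed by -0.58 and -0.41. Of 33 channels listed for pacemaking and potassium currents, 21 were tested (median -0.26). Calcium channels and pumps had a median of -0.09 over 16 tested genes, and the 9 subunits and regulators of the sodium-potassium ATPase one of -0.32. For the ATPase, the median within a mouse was -0.69 in 784 and -0.20 to 0.03 in the other 4.

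The 67 tested nuclear genes had a median of -0.03, with 0 at an unadjusted p under 0.05 in limma, and a summed level of 301.4 to 400.7 in the SN and 292.1 to 398.3 in the VTA. The 13 mitochondrial genes had a median of 0.15, with 12 of 13 differences above 0, 0 past the unadjusted threshold in limma and a summed level higher in the SN of 4 mice. The 29 tested genes of synaptic vesicle release had a median of -0.08. Genes of inherited parkinsonism and related proteins (12 tested of 15) had a median of -0.09. Sncg, gamma-synuclein, differed by 0.29 ± 0.29, with a higher SN level in 4 mice. The dopamine autoreceptor Drd2 differed by 0.31 ± 0.30 (0.09 without 784), and none of the 17 tested receptors of DA neurons passed the unadjusted threshold.

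**Figure D5:**
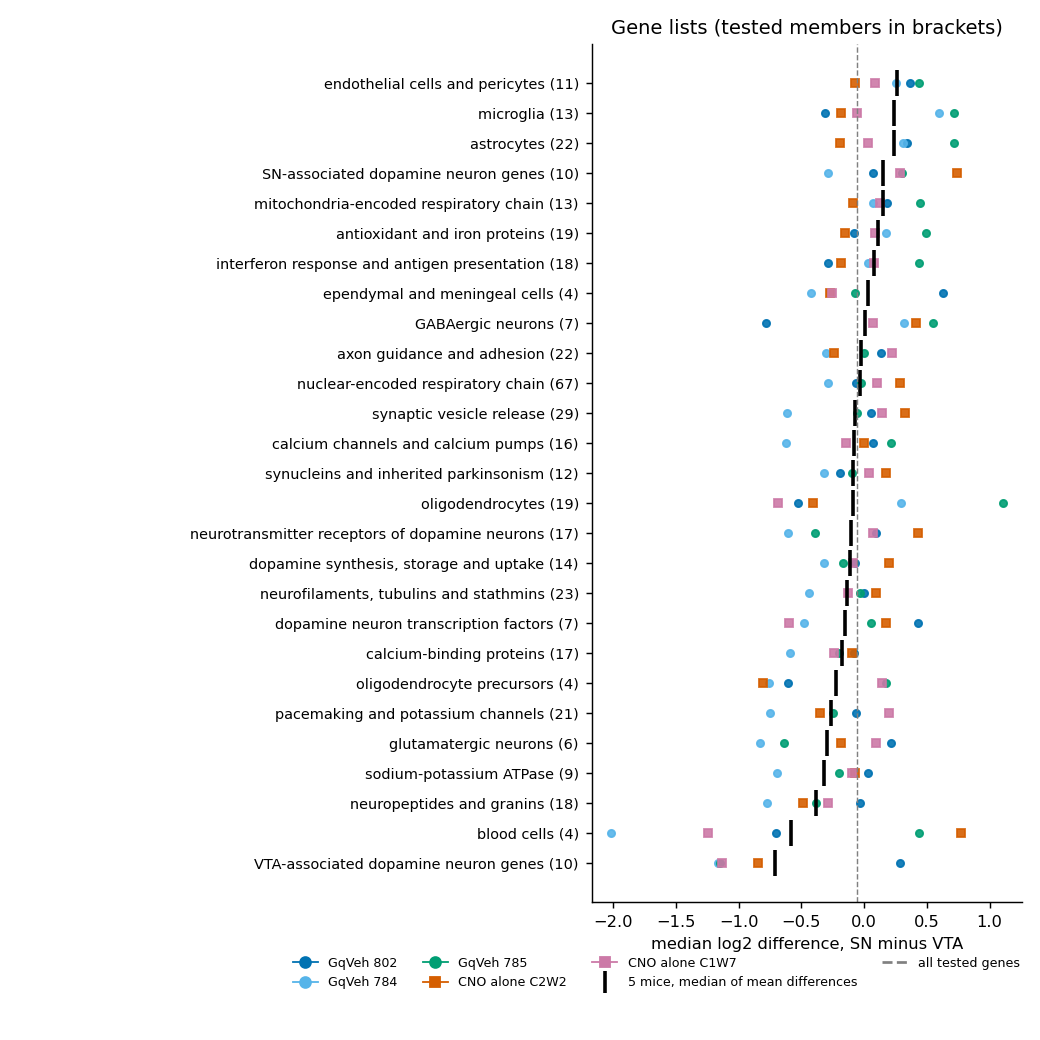
Median log2 difference (SN minus VTA) of each gene list with at least 4 tested genes, in each control mouse (circles GqVeh, squares CNO alone) and over the mean differences of 5 mice (black bar). The dashed line is the median of all 6180 tested genes, -0.06; the VTA-associated list lies lowest and mouse 784 lies low in most neuronal lists.

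Markers of other cell types in the discs also differed in level between regions, and their part in the differences above was not tested. Of 22 tested astrocyte genes, 20 had a mean difference above 0 (median 0.24), and the summed level was 145.9 to 249.9 in the SN and 113.1 to 186.6 in the VTA, higher in the SN of 4 mice. None of the 22 passed the unadjusted threshold in limma. Of 13 tested microglial genes 9 were above 0 (median 0.24), and of 11 endothelial and pericyte genes 10 (median 0.27). The median over all tested genes was -0.06. Within a mouse the microglial median was -0.31, 0.60, 0.72, -0.19 and -0.06, so it was above 0 only in 784 and 785. The astrocyte median was 0.34, 0.31, 0.72, -0.19 and 0.03, and the endothelial and pericyte one 0.37, 0.26, 0.44, -0.08 and 0.08. Oligodendrocyte genes had a median of -0.09, and their summed level was 113.3 to 204.1 in the SN and 97.64 to 196.6 in the VTA. In this list Ptgds was higher in the SN of 4 mice (0.68 ± 0.32, unadjusted p = 0.0384). The difference of the oligodendrocyte list within a mouse ran from -0.68 in C1W7 to 1.1 in 785. The sum of 10 GABAergic genes was 7.47 to 14.05 in the SN and 5.81 to 13.82 in the VTA. Haemoglobin transcripts reached 18.5 in the SN of C2W2 and 0.202 to 1.95 in the other SN columns, against 0.775 to 9.81 in the VTA. Of the defining markers of other neurons, the cholinergic gene Chat had a UMI in 1 of the 10 columns and the serotonin transporter gene Slc6a4 in 0 of 10, while Gad2 and the vesicular GABA transporter Slc32a1 had UMIs in 10 of 10. The oligodendrocyte genes Mbp and Mobp had UMIs in 10 of 10 columns, the astrocyte gene Aqp4 in 10 of 10, and the microglial genes Cx3cr1 and P2ry12 in 8 and 6. The microglial and interferon lists also differed between the control groups. Microglial genes summed to 22.2, 50.7 and 21.4 per 10000 in the SN of the GqVeh mice 802, 784 and 785, against 4.23 and 5.98 in the CNO alone mice C2W2 and C1W7. In the VTA the sums were 29.3, 29.4 and 6.97 in the GqVeh mice, against 4.97 and 4.85 in the CNO alone mice. Interferon and antigen presentation genes summed to 35.1, 61.8 and 27.9 in the SN of the GqVeh mice, against 3.7 and 4.73 in the CNO alone mice. In the VTA they summed to 41.3, 51.3 and 15.9 in the GqVeh mice, against 5.22 and 4.03 in the CNO alone mice. The GqVeh mice lay above the CNO alone mice in both lists and both regions. Virus injection and CNO differ together between these groups and cannot be told apart.

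In the 3 GqCNO mice, which the comparison did not use, the same differences were read as values only, since the SN of 801 and 781 rested on 1 disc each (7779 and 14717 UMIs). Calb1 differed by -2.88, 0.19 and -1.28 between SN and VTA in mice 801, 804 and 781, Cck by -4.47, -1.05 and -0.56 and Calb2 by -3.85, -0.54 and -3.53. Cck and Calb2 were lower in the SN of 3 of 3 mice, and Calb1 in 2 of 3. Calb1, Cck and Calb2 were at 0 in the SN of 801, and Calb2 in that of 781. In these columns 3 UMIs made 3.86 and 2.04 per 10000, so the sizes of these differences depend on the added 0.5. Serpine2 differed by 0.94, 0.40 and 1.18 and Aldh1a1 by 0.05, 1.66 and 0.72, all above 0. Aldh1a7 was at 0 in both regions of the 3 mice. Rps27l differed by -1.42, -0.23 and 0.56 and Klhl13 by -0.88, 0.17 and 0.66, higher in the SN of 1 and 2 of these mice. Means over these 3 mice were below 0 for Ntm (-0.26), Dgcr6 (-0.80), Npepps (-0.69) and Nat14 (-0.99), and above 0 for Ube2j1 (0.705). Among the other leading lower genes, means were above 0 for En1 (0.27), Bex1 (0.23), Fdft1 (0.36) and Arf3 (0.03). They were below 0 for Gaa (-1.28), Ache (-0.59), Msmo1 (-0.79), Slc25a12 (-0.25) and Nap1l4 (-0.07).

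The promoter windows of the genes that leaned to a region were searched on both strands for TAATCC, the core bound by OTX factors, and AACAAT, a core bound by SOX factors, since Sox6 and Otx2 are known regulators in SN and VTA neurons. Of the 101 genes lower in the SN, 77 had a window, and 9.09% of these held TAATCC and 9.09% AACAAT. Of the 27 higher genes, 24 had a window, and 12.5% held TAATCC and 12.5% AACAAT. Among the 4942 tested genes with a window the shares were 6.92% and 7.26%, and among all 27025 genes with a window 8.14% and 12.2%. A gene was counted when any of its windows matched. The windows of Cck, Tac1, Aldh1a1 and Aldh1a7 held neither motif, and Calb1 had no entry. A match or its absence is a description of these letters alone.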

How the data were processed

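RNA was captured on Visium arrays from fresh frozen sections of 10 µm. The authors ran Space Ranger against mm10 (version not given in the sources used here) and deposited, for each region of a mouse, the signal per gene as a median-normalized average over its discs. Steps in the deposited values gave back whole UMI counts for 100% of values (within 0.05 steps), and these counts were used for the count tests. The deposited columns of the authors' own comparisons (fold changes and p-values) were not used. SN and VTA columns were rescaled to 10000 and tested as the log2 difference within a mouse with 0.5 added, in limma 3.58.1 (lmFit, eBayes with trend, R 4.3.3, Benjamini-Hochberg adjustment), over genes with a mean of at least 0.25 per 10000. The mouse paired the regions because both came from the same animal. Correlations of same-mouse deviations were -0.00357 to 0.142. The count tests were edgeR 4.0.16 (quasi-likelihood) and DESeq2 1.42.0, with mouse as a block. Scripts were tested on simulated data. The alternatives were TMM scaling, other added constants and filters, an array block, no replicate block, equal weight of the control groups, thinning to 11644 UMIs, genes in both tables only, the deposited scale, each mouse left out and, added after the data were seen, each mouse left out in edgeR. The members and lists were chosen with earlier results of these data known. The text names Th, Slc6a3, Aldh1a1 and Slc18a2, up to 12 genes per direction (smallest unadjusted p under 0.05, the same sign in 5 of 5 mice, mean of at least 1), up to 4 genes per list by p and all tested members of the SN and VTA lists. The standard errors and p-values of limma use a variance shrunk toward a trend over all genes. They therefore measure the spread of a gene over 5 mice only in part. Limits for counts of 0 cover counting error only. Some genes that this rule names are not reported here.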

Additional observations from a re-analysis of the deposited data

Results flagged for a closer look

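Of 119 groups of 5 values checked, 12 held a value farther from the others than Dixon's 95% limit (0.71 of the range), and chance alone marks about 1 in 20 groups. In the SN of mouse 784, the column with 11644 UMIs, Ddc was 4.29 per 10000 (13.9 to 16.6 in the other SN columns) and Sncg was 1.72 (5.45 to 6.61). The log2 difference of Slc6a3 in the same mouse was -0.83 (0.163 to 0.532 in the others). In the 2-disc VTA of mouse 785, Tac1 was 6.59 (0 to 0.114 in the other VTA columns), Slc17a6 1.55 (0.343 to 0.687), Fdft1 3.49 (1.78 to 2.14) and Slc25a12 3.49 (1.29 to 1.86), and the log2 difference of Tac1 was -3.83 (-0.297 to 0). In mouse 802, Adcyap1 was 0.807 and Lpl 0.404 in the SN, where the other 4 SN columns had 0 for both, and Ndnf was 0.82 in the VTA (0.24 to 0.4). En1 was 3.88 in the VTA of C2W2 (2.34 to 2.71). Of the 12 values, 8 came from the SN column of 784 or the VTA column of 785, or from a difference that used one of them.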

How the results depend on the processing

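At an adjusted p under 0.05 limma called 0 genes, and edgeR with mouse as replicate block called 1 higher and 3 lower. With single mice left out, limma again called 0, and edgeR called 0 to 1 higher and 1 to 4 lower (2 lower without 785). The 27 genes higher in the SN (unadjusted p under 0.05, same sign in all mice) became 12 with TMM scaling, 6 with a constant of 0.1, 41 without a filter, 12 at a mean of at least 1, 12 with an array block, 11 in edgeR and 12 in DESeq2, and with a mouse left out 36 to 55 in limma and 19 to 39 in edgeR. The 101 lower genes became 158 with TMM scaling, 352 without a filter, 10 at a mean of at least 1, 64 with an array block, 27 in DESeq2 and 38 after thinning to 11644 UMIs, and with a mouse left out 81 to 167 in limma and 74 to 118 in edgeR. In limma the higher count moved most without 784 (55), C2W2 (50), C1W7 (47) and 785 (43), and the lower count without C1W7 (167). Fits without a mouse require the same sign in 4 mice, a looser criterion. Without the pairing (no replicate block), 34 genes were higher and 111 lower. The fit reported here called no gene in limma, so there was no call that an alternative could reverse. The sign of small differences, such as Slc6a3, Ddc and Grp, changed in at least 1 of 23 alternatives. Depth limits the low genes: 3 UMIs made 0.417 to 2.58 per 10000 in the SN and 0.0857 to 1.16 in the VTA. The cause of these shifts was not tested.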

Other observations

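Genes of iron handling and antioxidant defence had a median difference of 0.11 over 19 tested members, and Prdx3, a mitochondrial peroxidase, was the member past the unadjusted threshold in limma (-0.76, lower in the SN). Of 18 immediate-early genes, which neurons switch on with activity, 3 passed the filter on low values and 0 passed the unadjusted threshold in limma.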
